A study of Mus musculus with 5 samples.

Results

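The nuclei described here are skeletal muscle nuclei found among nuclei of mouse interscapular brown adipose tissue (BAT). They were chosen by their own transcripts. A barcode was taken when it held 1000 or more unique molecular identifiers (UMIs, each standing for 1 captured RNA molecule), 10 or more UMIs summed over Ttn, Neb, Trdn, Ryr1, Myh4, Myh1, Tnnt3, Mylk4 and Ckm with at least 3 of these 9 genes detected, and 2 or fewer UMIs summed over Ptprc, Mrc1, Pdgfra, Flt1, Cyyr1 and Abcc9, genes of immune, stromal, endothelial and mural cells. This gave 266 nuclei of 20307 barcodes, or 1.38% of the 19313 barcodes with 1000 or more UMIs. The matrix holds 1 library of 3-month-old control (WT) mice and 1 library of 3-month-old UCP1-STX4KO mice. In UCP1-STX4KO mice, both copies of Stx4, a plasma membrane syntaxin used in vesicle fusion, are floxed and a Cre recombinase under the Ucp1 promoter removes them in brown adipocytes. The controls called WT were littermates that carried either the Ucp1-Cre transgene or the floxed Stx4 alleles but not both, and which of these went into the library is not given in the sources used here. The methods name male mice without saying how they were divided between libraries. Ucp1 is a gene of brown adipocytes, and the deletion was not directed at muscle. Nuclei were released by Dounce homogenisation, sorted, and processed with 10x 3′ chemistry, and the labels call the material brown adipocytes. Each barcode carries the suffix 1 or 2 for its library, and no label ties a suffix to a genotype, so WT and UCP1-STX4KO nuclei cannot be told apart and no genotype comparison was made.

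Skeletal muscle fibers are syncytia that hold many nuclei in 1 cytoplasm. Adult fibers differ in the myosin heavy chain that drives contraction: Myh7 in slow, oxidative type I fibers, Myh2 in type IIa, Myh1 in type IIx and Myh4 in the fastest, glycolytic type IIb fibers. Nuclei under the nerve terminal and at the tendon use gene programmes of their own. Interscapular BAT lies directly against back and shoulder muscle, and brown adipocytes share a Myf5-expressing developmental origin with muscle, but mature brown adipocytes do not build sarcomeres.

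Muscle nuclei were almost all in 1 of the libraries. Suffix 2 gave 258 nuclei of 8112 barcodes with 1000 or more UMIs (3.18%, exact 95% binomial interval 2.81 to 3.59), and suffix 1 gave 8 of 11201 (0.0714%, 0.0308 to 0.141). These and all intervals given here are at 95% and cover counting error only, not the spread between nuclei or animals, and with 1 library per suffix no test of the difference was possible. In suffix 2 the muscle nuclei held 1000 to 25990 UMIs with a median of 4129.5, against a median of 3693 in the 7854 remaining barcodes of that suffix, and a median of 1759.5 genes against 1809. The 9 selection genes took 0.545% to 23.5% of a nucleus's UMIs, with a median of 8.12%. The lower limit fell in a gap: no barcode of suffix 2 held 10 to 19 muscle UMIs from 3 or more genes, 6 held 5 to 9 and 3 held 20 to 49. Between the suffixes, 23 barcode sequences were shared, 1 of them belonging to a muscle nucleus.

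The promoters of the 4 adult myosin heavy chain genes are shown because the nuclei are sorted below by which of these genes they transcribed. Myh2, Myh1 and Myh4 lie side by side on chromosome 11 and Myh7 lies on chromosome 14. Each sequence gives the 250 bases before the start of transcription in RefSeq (build GRCm38.p6), 5′ to 3′ on the gene's strand, and for Myh7 the farther upstream of 2 annotated starts was used. Capitals mark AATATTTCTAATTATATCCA, the longest word that the 3 fast myosin promoters share. The windows are chr11:67170777-67171026 (plus strand) for Myh2, chr11:67199852-67200101 (plus) for Myh1, chr11:67237562-67237811 (plus) for Myh4 and chr14:54994627-54994876 (minus) for Myh7.
Myh2: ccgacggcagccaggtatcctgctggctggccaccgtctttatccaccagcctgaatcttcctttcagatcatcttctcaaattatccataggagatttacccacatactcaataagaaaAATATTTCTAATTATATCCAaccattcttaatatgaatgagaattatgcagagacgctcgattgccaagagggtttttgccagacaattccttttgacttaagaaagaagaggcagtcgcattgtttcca
Myh1: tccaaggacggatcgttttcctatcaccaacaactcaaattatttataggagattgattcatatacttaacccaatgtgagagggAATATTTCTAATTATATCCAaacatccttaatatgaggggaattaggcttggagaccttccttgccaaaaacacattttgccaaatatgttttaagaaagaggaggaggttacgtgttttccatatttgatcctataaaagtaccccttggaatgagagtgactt
Myh4: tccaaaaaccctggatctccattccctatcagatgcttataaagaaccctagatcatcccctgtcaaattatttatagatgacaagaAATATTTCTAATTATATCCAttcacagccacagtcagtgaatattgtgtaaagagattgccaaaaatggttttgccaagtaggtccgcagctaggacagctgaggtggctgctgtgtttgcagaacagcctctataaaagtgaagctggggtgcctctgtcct
Myh7: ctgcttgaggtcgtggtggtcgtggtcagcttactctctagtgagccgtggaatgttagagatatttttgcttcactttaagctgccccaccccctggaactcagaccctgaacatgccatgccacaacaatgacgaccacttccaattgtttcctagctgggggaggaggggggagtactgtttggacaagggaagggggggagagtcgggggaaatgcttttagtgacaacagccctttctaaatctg
The shared 20-base word began 130 bases before the start in Myh2, 165 in Myh1 and 163 in Myh4, and was not found in the Myh7 window. Among 32851 RefSeq promoters searched on both strands over the same 250 bases, 3 held it (0.00913%), those of Myh1, Myh2 and Myh4. The word was taken from these 3 promoters, so their hits were fixed in advance. The letters CAGCTG, an E-box of the kind that MyoD binds, occurred once in the Myh4 window and in no other of these windows, and in 13% of all promoters. The looser CANNTG, which includes CAGCTG, occurred 2 times in Myh4, 1 time in Myh7 and not in Myh1 or Myh2 (66.2% of all promoters). Pairwise identity of the windows ran from 40.9% for Myh2 and Myh7 to 55.4% for Myh1 and Myh4. These are matches of letters in these windows and describe no binding.

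The chosen nuclei carried transcripts of many contractile genes, well beyond the genes that chose them. Levels below are CPM, UMIs of a gene per 1000000 UMIs, summed over the 258 muscle nuclei of suffix 2 and over its 7854 remaining barcodes. Ttn, the giant spring of the sarcomere, reached 60277 CPM against 1094, a ratio of 55.1. Of all RNAs only Malat1, a nuclear non-coding RNA, was more abundant, at 68070 CPM. The third was Gm42418, a long non-coding RNA gene, at 16573 CPM against 20991. Dmd, which encodes dystrophin, stood at 13228 CPM against 312 and Neb, the thin filament ruler, at 11237 CPM with a ratio of 59.0. Trdn, which anchors the calcium release complex, stood at 6032 CPM with a ratio of 56.7, and Ryr1, the calcium release channel itself, at 2320 CPM with a ratio of 59.5. Long introns give many reads in nuclei, so the order of genes says nothing of their order in protein or mature mRNA. Since the same values chose the nuclei, these ratios are a description. Of 9893 genes with enough UMIs, 1112 had a ratio of 2 or more (11.2%) and 3016 a ratio of 0.5 or less (30.5%), and the median ratio over all of them was 0.708.

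Genes that the selection did not use stood as high. Ratios were ranked among genes with 100 or more UMIs in the muscle nuclei. With the remaining barcodes as the selection left them, the gene with the highest ratio was Myh2 at 770 CPM against 3.51, or 219-fold (183 to 265). This rank does not hold without 80 muscle barcodes that the limit on other cell types kept out, described below, none of them in the Myh2 class. Myh2 is then at 330-fold. Genes above it include 2310020H05Rik, a long non-coding RNA, at 513-fold, and Gm28653 at 454-fold. Ip6k3, an inositol phosphate kinase, at 419-fold and Agbl1 at 338-fold are above it too. Gm28653, a long non-coding RNA on chromosome 1, stood at 366 CPM (167-fold), Rp1, a microtubule protein best known in photoreceptors, at 381 CPM (158-fold), and Ankrd2, a stretch-responsive ankyrin repeat protein of slow muscle, at 403 CPM (113-fold). Myh7 reached 645 CPM against 7.23, or 89.2-fold. Vgll2, a cofactor of TEAD factors in muscle, was 85.8-fold, Tnnt1, slow troponin T, 84.7-fold, Myom3, an M-band protein, 80.5-fold, and Myoz2, a Z-disc calcineurin-binding protein, 77.4-fold higher. Most of these genes were highest in nuclei of slow or oxidative fibers, as given by class below.

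By role, most measured genes of the contractile lists were high, and other lists were divided. Of 12 fast, 12 slow, 18 scaffold and 20 coupling genes, 11, 10, 17 and 17 had enough UMIs to be compared. All 11 measured fast isoforms had ratios of 2 or more (median 38.6), as did 9 of 10 slow isoforms (median 69.4), all 17 sarcomere scaffold genes (median 55.1) and 16 of 17 genes of excitation-contraction coupling (median 42.9), where 11.2% of all genes had such a ratio. The scaffold list holds the selection genes Ttn and Neb and the coupling list Ryr1 and Trdn, so these counts are in part fixed by the selection. The dystrophin complex was divided, with 7 of 14 genes at 2 or more, 3 at 0.5 or less and a median of 2.50. Its members that other cells also use were not high: Utrn, the dystrophin paralog, was at 262 CPM against 870, and Sgcd, delta-sarcoglycan, at 1583 against 1844. Of 14 genes of glycogen and glycolysis, 7 were at 2 or more and 1 at 0.5 or less (median 2.24), and of 14 oxidative genes 5 and 3 (median 1.27). Brown adipocytes are themselves oxidative, and Ppargc1a, the coactivator of mitochondrial genes, was lower in the muscle nuclei at 3434 CPM against 9590. For glucose uptake, 1 of 14 genes was at 2 or more, namely Tbc1d1, a Rab GTPase-activating protein of muscle, at 179 CPM against 42.7 (4.20-fold, 3.63 to 4.83). Slc2a4, the insulin-responsive glucose transporter, stood at 139 CPM against 74.7, and Stx4a at 28.8 against 54.9.

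Muscle transcription factors were present without those of muscle precursors. Of 19 measured factors, 13 had ratios of 2 or more and none was at 0.5 or less (median 3.68), where 11.2% and 30.5% of all genes were. Mef2c, a factor of differentiated fibers, was at 2435 CPM against 88.9 (27.4-fold), and Eya4, a coactivator with phosphatase activity, at 339 against 12.3 (27.6-fold). Myf6, the myogenic factor kept by adult fibers, had 10 UMIs, which is 8.0 CPM against 0.317. Myog, which drives differentiation of precursors, had 0 UMIs in 258 nuclei, and so did the fetal myosin Myh8 and the extraocular Myh13. The 8 satellite cell genes held 11 UMIs in all, 4 of them at 0 and Pax7 at 2, and the 10 regeneration genes held 12 with 6 at 0. At this depth 3 UMIs over the group equal 2.40 CPM, so low levels would not have been seen.

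The list of denervation and atrophy genes was divided, and 2 ubiquitin ligases in it were high. Fbxo32 and Trim63, which encode atrogin-1 and MuRF1, stood at 1088 CPM against 75.5 and 821 against 15.2, ratios of 14.4 and 54.1. The list had 6 of 13 genes at 2 or more, where 11.2% of all genes were, and 4 at 0.5 or less, where 30.5% were. Its median was 0.710, next to 0.708 over all genes. Chrng, the fetal acetylcholine receptor subunit that denervated muscle takes up again, had 0 UMIs.

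Markers of other cell types were low in these nuclei, in part because the selection capped Ptprc, Mrc1, Pdgfra, Flt1, Cyyr1 and Abcc9, which belong to the immune, fibroblast, endothelial and mural lists. The adipocyte list was not used to choose them. All 8 adipocyte genes were lower than in the remaining barcodes, at ratios of 0.239 to 0.343, and their sum was 2105 CPM against 8357. Ucp1, the uncoupling protein of brown fat, stood at 194 CPM against 705. A nucleus held 0 to 289 adipocyte-list UMIs with a median of 4. With doublet calls and an adipocyte-rich group of nuclei left out, 236 nuclei kept a sum of 1057 CPM and at most 21 UMIs each. That group was picked as the cluster with the highest share of this same list, so the fall follows from the choice. Adipocyte signal was still present in the nuclei that were left. Only 3 of all 266 nuclei (1.13%) held more adipocyte-list than muscle UMIs. The macrophage list summed to 31.2 CPM against 283, the endothelial list to 19.2 against 145 and the fibroblast list to 59.2 against 276. The mural list stood at 143 against 156 CPM, but 165 of its 179 UMIs were Abcc9, and Rgs5 and Acta2 were at 0. The Schwann cell list summed to 43.2 against 156 and the lymphocyte list to 13.6 against 65.7. Of the cardiac list, 17 UMIs were found with Tnnt2, Tnni3, Nppa, Mybpc3 and Myl7 at 0, and of the smooth muscle list 1 UMI. Of 5 pyroptosis genes, an interest of the study, 3 had enough UMIs to be compared and all 3 were at 0.5 or less, where 30.5% of all genes were. The muscle nuclei held 14 UMIs of the list in all.

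**Figure D1:**
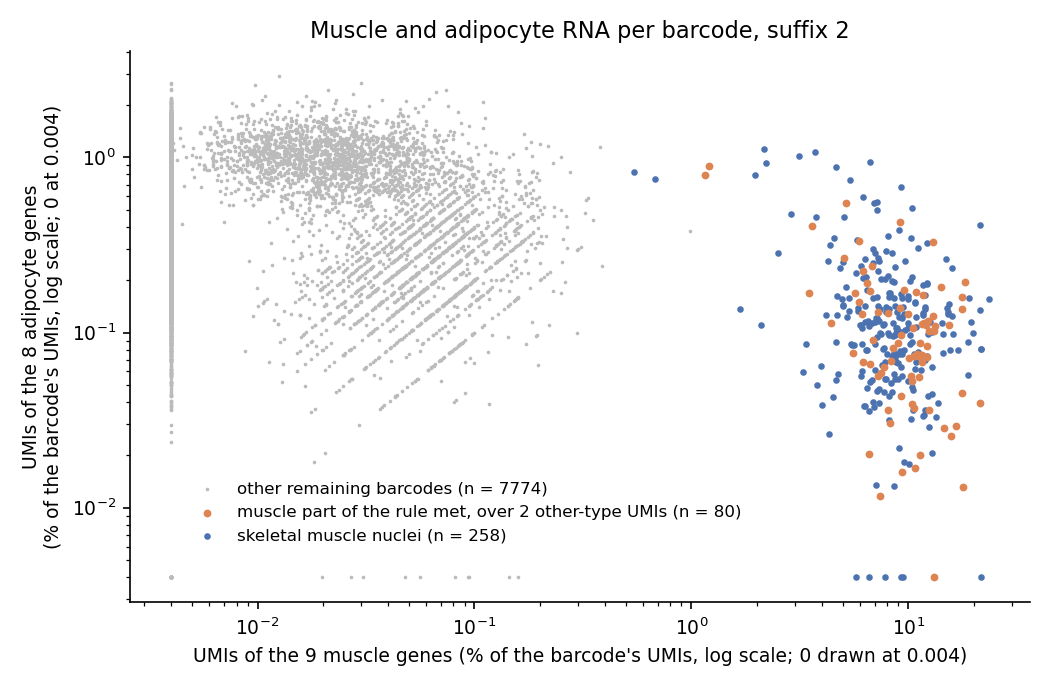
Share of each barcode's UMIs from the 9 selection genes (horizontal, percent, log scale) and from 8 adipocyte genes (vertical, percent, log scale) for barcodes of suffix 2 with 1000 or more UMIs, with a share of 0 drawn at 0.004%. The 258 muscle nuclei (blue) and the 80 barcodes over the limit on other cell types (orange) lie together at high muscle and mostly low adipocyte shares, apart from the 7774 other barcodes (grey).

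The limit on other cell types removed muscle nuclei along with the cells it was aimed at. In suffix 2, 80 barcodes met the muscle part of the selection and held more than 2 UMIs of the 6 other-type genes. Their median muscle share was 10.3% and their median adipocyte share 0.0889%, against 8.12% and 0.111% in the chosen nuclei, and their median depth was 5861.5 UMIs. Of their 327 other-type UMIs, 281 (85.9%) were Abcc9, and 76 of the 80 would have passed without that gene. Abcc9 encodes the SUR2 subunit of ATP-sensitive potassium channels and is used as a mural cell marker, but skeletal muscle uses it too. Over all 338 barcodes that met the muscle part, Abcc9 was at 239 CPM (217 to 262), and over the 7774 that did not at 63.9 (61.4 to 66.6). Kcnj11, the channel pore that pairs with SUR2 in muscle, stood at 12.8 CPM (8.23 to 19.1) against 0.483 (0.286 to 0.764). Kcnj8, the pore of the vascular channel, stood at 3.21 (1.18 to 6.99, on 6 UMIs) against 6.84 (6.03 to 7.74), and these intervals overlap. Both pore genes were looked up after the Abcc9 values were seen.

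Most muscle RNA of the remaining barcodes was in these 80. The remaining barcodes of suffix 2 had 1593 CPM of the selection genes, and 142 (139 to 146) without the 80. Of these 7774 barcodes, 4199 (54.0%) had no muscle UMI and none had more than 13. The chosen nuclei held 64.2% of all muscle UMIs of suffix 2, and 96.8% together with the 80. The ratios given above are therefore larger against barcodes free of muscle nuclei: 889 for Ttn, 398 for Neb, 134 for Dmd and 330 for Myh2.

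Nuclei of all 4 adult fiber programmes were found. The selection used Myh4, Myh1, Tnnt3, Mylk4 and Ckm, which fast fibers carry, but neither Myh2 nor Myh7, so the shares below describe the chosen nuclei and are not independent of the choice. A nucleus was put in a myosin class when it held 5 or more UMIs over Myh4, Myh1, Myh2 and Myh7 and 70% or more of them from 1 gene. The Myh4 class had 90 of 266 nuclei (33.8%, 28.2 to 39.9), Myh1 51 (19.2%), Myh2 40 (15%) and Myh7 41 (15.4%), while 19 (7.14%) were mixed and 25 (9.40%) had too few myosin UMIs. Suffix 2 gave 88, 46, 40 and 40 nuclei in this order, and the 8 nuclei of suffix 1 gave 2, 5, 0 and 1. These classes are cut from a measured share and are ranges rather than types, but few nuclei were near the cut: of 241 nuclei with 5 or more myosin UMIs, 161 had them all from 1 gene, 176 (73.0%) had at least 95% from 1 gene, and 17 lay between 60% and 80%.

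Mixing was limited to neighbours in the order of speed. Both Myh4 and Myh1 reached 3 UMIs in 14 nuclei and both Myh1 and Myh2 in 25, and no nucleus held 3 UMIs of both Myh4 and Myh2 or of Myh7 with any other myosin. The 19 mixed nuclei were 8 of Myh4 with Myh1 and 11 of Myh1 with Myh2. Myh2 nuclei were the least pure: only 4 of 40 held no other myosin, with a median share of 89.6%, whereas 81 of 90 Myh4, 38 of 51 Myh1 and 38 of 41 Myh7 nuclei did. With doublet calls and the adipocyte-rich group left out, 12 and 22 such pairs were left. The part of doublets in the pairs that were left was not tested.

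**Figure D2:**
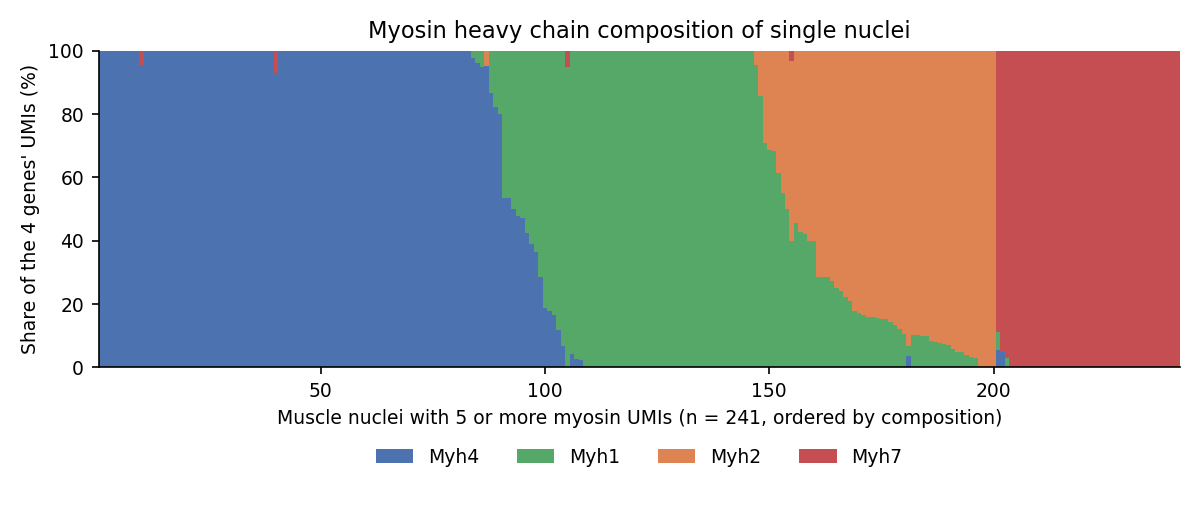
Share of Myh4, Myh1, Myh2 and Myh7 in the myosin UMIs of each of the 241 muscle nuclei with 5 or more (vertical, percent), with 1 column per nucleus, ordered by composition. Most columns are of 1 colour, and mixtures lie between Myh4 and Myh1 and between Myh1 and Myh2.

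Genes that the classes did not use divided along the same lines. The following levels are CPM summed over the 88 Myh4, 46 Myh1, 40 Myh2 and 40 Myh7 nuclei of suffix 2, from 456252, 223622, 198307 and 219661 UMIs, for which 3 UMIs equal 6.58, 13.4, 15.1 and 13.7 CPM. Ttn was nearly level at 61584, 58501, 60734 and 65824 CPM, and so was Dmd at 12815 to 14624.

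Slow fiber genes were held by the Myh7 class. Tnnt1, slow troponin T, was at 1338 CPM (1190 to 1500) in Myh7 nuclei and had 1 UMI in all other classes together. It was detected in all 40 Myh7 nuclei, at 1 to 20 UMIs with a median of 6, and in 1 of 88 Myh4, 0 of 46 Myh1 and 0 of 40 Myh2 nuclei. Tpm3, slow tropomyosin, was at 4361 CPM against 30.7, 4.47 and 15.1 in the Myh4, Myh1 and Myh2 classes. Atp2a2, the slow sarcoplasmic reticulum calcium pump SERCA2, was at 4056 CPM against 116, 89.4 and 85.7, with 2 to 70 UMIs in every Myh7 nucleus. Each Myh7 nucleus thus carried slow isoforms, and the groups overlapped for Atp2a2 only through a few fast nuclei of up to 19 UMIs. Tnnc1, Tnni1 and Myl2, the slow troponin C, troponin I and regulatory light chain, were at 801, 519 and 769 CPM and at 0 to 4.47 in the other classes. Myh7b, a slow-type myosin gene, was at 719 CPM, 316-fold above the others (86.0 to 2631).

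The fast isoforms mirrored them. Tnnt3, fast troponin T, ran at 2472, 1659, 1230 and 27.3 CPM from Myh4 to Myh7, and Atp2a1, the fast pump SERCA1, stood at 2696, 1896, 963 and 269. Pvalb, the calcium buffer that speeds relaxation, was almost limited to Myh4 nuclei at 287 CPM (240 to 341), against 31.3, 15.1 and 0 UMIs in the Myh7 class. Actn3, the fast fiber actinin, was at 199 and 44.7 CPM in Myh4 and Myh1 nuclei and had 0 UMIs in both the Myh2 and Myh7 classes. Mybpc2, fast myosin-binding protein C, showed the same division at 493, 130, 0 and 0. Its paralog Mybpc1 ran the other way at 2258, 3752, 9011 and 7962 CPM, and Actn2 at 677, 1605, 3232 and 4179. Myom2, an M-band protein, was even over the 3 fast classes at 333, 425 and 348 CPM. It had 0 UMIs in Myh7 nuclei, with a ratio interval that reached up to 0.0469.

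Against the other 3 classes, 192 of 3455 genes were at least 2-fold higher in Myh7 nuclei with an interval above 1 (5.56%) and 405 at least 2-fold lower (11.7%). Of the slow isoforms 9 of 10 were higher, and the exception was Mybpc1 at 1.91-fold. Of the fast isoforms 9 of 9 were lower. Of glycogen and glycolysis genes 7 of 13 were lower and none higher (median ratio 0.474): Pfkm, phosphofructokinase, was at 118 CPM against 780 in Myh4 nuclei and Phkg1, the catalytic subunit of phosphorylase kinase, at 105 against 1135. Of 14 oxidative genes, 1 was higher and 3 lower. Excitation-contraction coupling was mostly shared, with 2 of 16 genes lower and none higher (median 0.849), and Ryr1 at a ratio of 0.721 (0.645 to 0.803). Of 7 adipocyte genes 5 were lower. Over both suffixes, 1 Myh7 nucleus was in the adipocyte-rich group, against 6 Myh4, 4 Myh1 and 3 Myh2 nuclei. The contrast uses suffix 2, and 1 of those 4 Myh1 nuclei was from suffix 1. Nuclei of this group had a median of 12379 UMIs, so each weighed more in the summed levels than its count shows. The part of adipocyte RNA in the lower ratios was not tested.

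The Myh4 class was compared with the other fast classes, Myh1 and Myh2 together. Here 129 of 2935 genes were at least 2-fold higher (4.40%) and 119 at least 2-fold lower (4.05%). The highest ratios belonged to Adamtsl1, a secreted matrix protein, at 13.6 (6.70 to 32.3), Peg3, an imprinted zinc finger gene, at 13.1, Pvalb at 12.1, Casr, the calcium-sensing receptor, at 11.4, Sorbs2, a Z-disc adaptor, at 11.0, Actn3 at 8.42 and Mybpc2 at 7.18. The lowest belonged to Myoz2 and Gm28653 and to Ankrd2, Rp1, Myom3 and Sox2ot. Myoz2 and Gm28653 each had 0 UMIs in Myh4 nuclei, with ratio intervals that reached up to 0.0370 and 0.0486. Of 9 fast isoforms 5 were higher, and of 4 measured slow isoforms 3 were lower. Of 14 oxidative genes 5 were lower, namely Esrrg, Esrrb, Fabp3, Mb and Ckmt2, and none was higher. Mb, myoglobin, ran at 17.5, 80.5, 146 and 109 CPM from Myh4 to Myh7, on 8 UMIs in the Myh4 class.

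Some transcription factors graded with class and most did not. Of 16 factors measured, 2 were higher and 5 lower in Myh7 nuclei than in the other classes (median ratio 0.755). Over all genes these shares were 5.56% and 11.7%. Of 15 measured for Myh4 against Myh1 and Myh2, 3 were higher and 1 lower (median 1.07), beside 4.40% and 4.05% of all genes. Maf, a large bZIP factor tied to type IIb fibers, was at 1065, 434, 65.6 and 13.7 CPM in Myh4, Myh1, Myh2 and Myh7 nuclei. It was detected in 84 of 88 Myh4 nuclei (0 to 30 UMIs, median 4) and in 2 of 40 Myh7 nuclei (0 to 2). Sox6, which represses slow genes, was at 3375, 1945, 1397 and 1002 CPM, and Eya4 at 686, 174, 131 and 50.1. Prox1, a homeobox factor of slow fibers, was at 232 CPM in Myh7 nuclei and 4.47 to 8.77 elsewhere (34.0-fold, 14.6 to 96.9), and Nfatc2, a calcineurin target, at 369 CPM against 145 to 183. The orphan receptors of oxidative metabolism were higher towards the slow class, Esrrg at 1181, 2209, 2748 and 3424 CPM and Esrrb at 13.2, 49.2, 222 and 291. Mef2c had a ratio of 1.04 (0.946 to 1.14) in Myh7 nuclei, so that no class difference was seen beyond counting error. Ppargc1a was lowest in the Myh7 class at 1093 CPM, against 3610, 4423 and 2789; it is also a brown fat gene at 9590 CPM in the remaining barcodes.

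**Figure D3:**
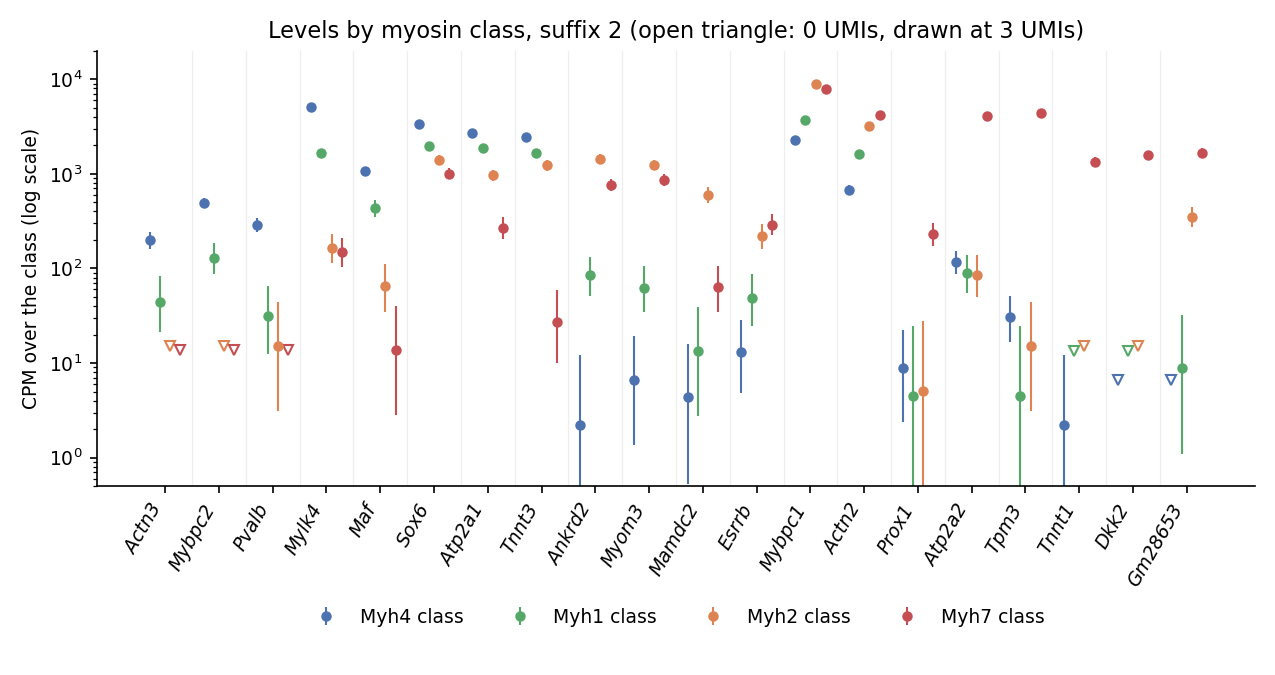
CPM of 20 named genes in the 4 myosin classes of suffix 2 (vertical, log scale), with exact 95% Poisson intervals as bars and open triangles at 3 UMIs where a class had 0. Actn3, Pvalb and Maf stand highest in the Myh4 class, Mamdc2 and Ankrd2 in Myh2, and Tnnt1, Tpm3 and Atp2a2 in Myh7.

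Type IIa nuclei had markers of their own. Against the other 3 classes, 77 of 3455 genes were higher in the Myh2 class (2.23%) and 244 lower (7.06%). Mamdc2, a matrix proteoglycan, led at 600 CPM against 4.38, 13.4 and 63.7 in the Myh4, Myh1 and Myh7 classes (28.4-fold, 17.4 to 48.8). Csrp3, the muscle LIM protein, was at 247 CPM (9.66-fold), with 0 UMIs in both Myh4 and Myh1 nuclei, Ankrd2 at 1432 CPM (6.85-fold), Myom3 at 1236 (5.42-fold) and Lmcd1, a LIM and cysteine-rich cofactor, at 575. The Myh7 class had lower levels of the same genes, Csrp3 at 105, Ankrd2 at 765, Myom3 at 856 and Lmcd1 at 205 CPM. Neb was highest in the Myh2 class at 17932 CPM, against 9111, 10200 and 11836.

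The genes that led the Myh1 class changed with the nuclei included. Against the other 3 classes, 68 of 3455 genes were higher in Myh1 nuclei and 161 lower. The highest ratios included Ntrk2, a neurotrophin receptor, at 7.41-fold and Rbpms, an RNA-binding protein, at 5.58-fold, but without doublet calls and the adipocyte-rich group Ntrk2 stood at 0.316 (0.00743 to 2.10) and Rbpms at 0.624 (0.238 to 1.39). The non-coding RNA 4831440D22Rik stood at 3.55-fold and 3.52-fold with and without these nuclei, and Bmper, a BMP-binding secreted protein, at 3.99-fold and 4.81-fold.

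Of 10 glucose uptake genes, 2 were lower and none higher in Myh7 nuclei (median 0.928), where 11.7% of all genes were lower. Against the Myh1 and Myh2 classes, 1 of the 10 was higher in Myh4 nuclei (median 0.949), where 4.40% of all genes were. Among atrophy genes, Trim63 was at 991, 1368, 535 and 146 CPM in Myh4, Myh1, Myh2 and Myh7 nuclei and Fbxo32 at 1427, 1239, 570 and 669. The glucose uptake gene Tbc1d1 was at 311, 233, 20.2 and 4.55 CPM, the last on 1 UMI, whereas its paralog Tbc1d4 was 1.67-fold higher in the Myh7 class (1.40 to 1.99). Hk2, the hexokinase of insulin-responsive tissue, was at 1111, 1650, 731 and 460 CPM. No class difference beyond counting error was seen for Slc2a4, with ratios of 0.987 (0.681 to 1.43) for Myh4 and 0.983 (0.636 to 1.48) for Myh7.

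Some slow-class RNAs come from genes that host muscle microRNAs. The mature microRNAs were not measured, and their RefSeq sequences are shown because the host transcripts followed the classes. They are printed 5′ to 3′ with the seed, bases 2 to 8, in capitals.
miR-206-3p: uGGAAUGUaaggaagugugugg
miR-133b-3p: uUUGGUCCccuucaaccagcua
miR-208b-3p: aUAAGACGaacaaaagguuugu
miR-499-5p: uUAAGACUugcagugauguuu
The microRNA genes of the first 2 lie within Gm28653 and overlap its exons. Their mature sequences are at chr1:20679055-20679076 and chr1:20682834-20682855 (plus strand). miR-208b lies in an intron of Myh7 at chr14:54975710-54975731 (minus) and miR-499 in an intron of Myh7b at chr2:155622893-155622913 (plus). The seeds of miR-208b and miR-499 share their first 6 letters. Gm28653 ran at 0 UMIs, 8.94, 353 and 1680 CPM from Myh4 to Myh7 and was seen in 30 of 40 Myh7 nuclei with up to 67 UMIs. All 3 host genes thus stood highest in the Myh7 class, and for Myh7 itself this is how the class was defined.

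Antisense RNAs of the myosin loci differed between classes as well. Myhas starts inside the Myh4 promoter window shown above, 239 bases from the Myh4 start, and runs on the minus strand away from Myh4 and into the 3′ part of Myh1. It was at 305, 71.5 and 10.1 CPM in Myh4, Myh1 and Myh2 nuclei and had 0 UMIs in Myh7 nuclei. Mhrt, antisense to Myh7, was at 200 CPM in Myh7 nuclei and had 0 UMIs in the other classes. The strand setting of the counting is not given in the sources used here, so reads of Myhas and Myh1, and of Mhrt and Myh7, cannot be told apart with certainty where they overlap.

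The Myh7 class was itself divided by Dkk2, a secreted modulator of Wnt signalling. Dkk2 had 345 UMIs in Myh7 nuclei and 0 in the other 3 classes, with a ratio interval from 372-fold upward. Of 40 Myh7 nuclei 19 carried it, at up to 99 UMIs, and 21 were at 0. Depth was alike, with a median of 5289 UMIs in the 19 and 4743 in the 21. Tnnt1 was found in all of both, and Astn2, a neuronal adhesion protein, in 17 of 19 and 16 of 21. The division was noticed in these values, and all 40 nuclei are from 1 library.

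Abcc9 differed between classes too. Over all 338 barcodes of suffix 2 that met the muscle part, Abcc9 was at 311 CPM in the Myh4 class (274 to 353), 248 in Myh1 (198 to 306), 101 in Myh2 (61.6 to 156) and 117 in Myh7 (82.2 to 161). Myh4 and Myh1 together were 2.64-fold above Myh2 and Myh7 (1.99 to 3.56). The limit on other cell types kept 65.7% of Myh4, 75.4% of Myh1, 100% of Myh2 and 85.1% of Myh7 nuclei, and 89.3% of nuclei with too few myosin UMIs, where Abcc9 was at 305 CPM. The barcodes kept out were also deeper, at a median of 5861.5 UMIs against 4129.5, and the parts of depth and of Abcc9 level in these shares were not tested. Counted over all 338, the classes held 134, 61, 40 and 47 nuclei.

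**Figure D4:**
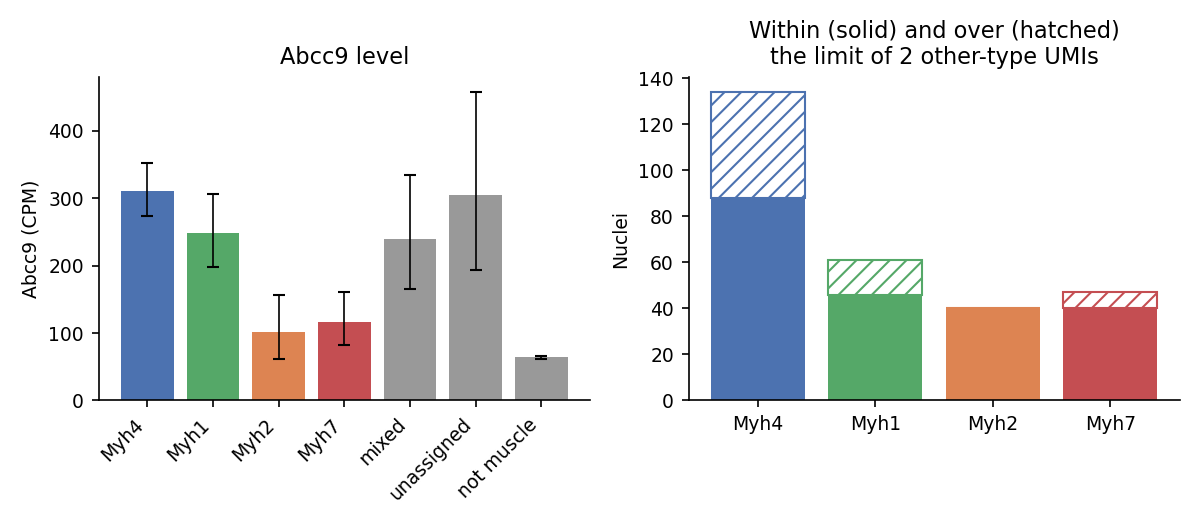
Left, Abcc9 in CPM by myosin class with exact 95% Poisson intervals, over the 338 barcodes of suffix 2 that met the muscle part of the selection and over all others (not muscle). Right, nuclei of each class within (solid) and over (hatched) the limit on other cell types, which removed nuclei mostly from the Myh4 and Myh1 classes and none from Myh2.

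Few nuclei carried genes of the neuromuscular junction. A nucleus counted as synaptic when it held 3 or more UMIs from 2 or more of Chrne, Chrna1, Chrnd, Musk, Etv5, Colq and Ufsp1, genes of the acetylcholine receptor and the synaptic scaffold. This held for 6 of 258 nuclei (2.33%, 0.858 to 4.99) and for 4 of the 7854 remaining barcodes (0.0509%), at median depths of 4129.5 and 3693 UMIs, and for 1 of each after thinning every barcode to 1000 UMIs. The remaining barcodes include the 80 that the limit on other cell types kept out, so they are not free of muscle nuclei. With Abcc9 left out of that limit, 8 muscle nuclei counted as synaptic against 6. Of the 6, 4 were in the Myh7 class, and Colq was found in 5, Musk in 4 and Etv5 in 4. The Myh7 nuclei of 5282 and 7611 UMIs counted only through 6 Colq and 1 Etv5 UMI each, with none of the other listed genes. Since Colq was itself high in the Myh7 class, it favours that class in this count. Colq, the collagen tail of acetylcholinesterase, was found in 27 of 40 Myh7 nuclei, which held 96 of its 110 UMIs, so that it was spread over slow nuclei rather than held by a few.

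A single nucleus carried a broader synaptic programme. It held 4537 UMIs with 11 of Myh7, and had 2 UMIs of Chrne, the adult receptor subunit, 2 of Chrnd, 6 of Etv5, an ETS factor of synaptic nuclei, 9 of Colq, 1 of Musk and 1 of Ufsp1. These were the only Chrne UMIs in the 258 nuclei. The same nucleus held 45 of the 47 UMIs of Ano4, a member of the anoctamin family, and 23 of the 27 of Phldb2, a scaffold protein. Kcnd2, a potassium channel, was less particular to it, with 19 of 59 UMIs there and 6 nuclei carrying it. Among the other 5 nuclei that counted, Chrnd appeared in 1, with 1 UMI.

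No nucleus met the count set for the tendon end. Col22a1, the collagen of the myotendinous junction, had 1 UMI in the 258 nuclei, and 0 of 258 held 3 or more. The interval allows up to 1.42% of nuclei with 3 or more UMIs. This limits such nuclei and not those that express the gene at a lower level. In the remaining barcodes 0 of 7854 did. Ncam1, which denervated fibers and junctions carry, was at 341 CPM in Myh7 nuclei and 0 to 20.2 in the others and was found in 32 of 40 Myh7 nuclei. Myh6, which muscle spindle fibers use, had 8 UMIs in Myh7 nuclei (36.4 CPM) and none in the other classes.

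Clustering the 266 nuclei at a leiden resolution of 0.5 gave 6 groups, some of them close to a myosin class and others across classes. The number depended on this setting, with 4 groups at 0.3 and 6 at 1. The groups described are those at 0.5. Group 4 (41 nuclei) held 39 of the Myh7 class, group 2 (47) held 46 of Myh4 and group 5 (25) held 19 of Myh2. Mamdc2 and Bdh1 were among the leading genes of group 5, and so were the mitochondrial transcripts mt-Atp6 (8.55-fold) and mt-Nd5 (8.22-fold), whose part in the grouping was not tested. Group 0 (83) held 37 Myh4 and 27 Myh1 nuclei, and group 1 (51) held 19 Myh1, 17 Myh2 and 8 mixed. Group 3 (19 nuclei) stood apart by depth, with a median of 12379 UMIs, an adipocyte share of 0.744% and 10 of the 14 doublet calls, and drew on all classes. At this resolution, most Myh4 nuclei fell into 2 groups. In suffix 2, group 2 held 44 and group 0 held 37 of them, and group 2 had 37 UMIs of Kcnab1, a potassium channel beta subunit, against 0. Casr was at 285 CPM against 48.5, Adamtsl1 at 479 against 55.4 and Pvalb at 456 against 152 (2.99-fold, 1.87 to 4.99), while Maf was level at 1239 and 1219 and Trim63 was lower at 861 against 1489. Since the groups were formed on these genes, this describes how type IIb nuclei varied and tests nothing.

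The 8 nuclei of suffix 1 were of the same kind with 1 exception. Of these, 7 held 3246 to 7568 UMIs, of which 5.56% to 10.5% were muscle UMIs and 3 to 12 were adipocyte UMIs. The other held 74190 UMIs with 186 muscle (0.251%) and 663 adipocyte UMIs. Outside them and the 2 barcodes kept out by the limit, suffix 1 had 8.09 CPM of the selection genes, and 95.6% of its barcodes had none, against 142 CPM and 54.0% in suffix 2. Muscle RNA outside muscle nuclei was thus higher in the library with more of them, and its source was not tested.

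The selection was also applied to the second matrix of the study, BAT of C57BL/6J mice aged 2, 12 and 24 months, whose suffixes are likewise not tied to ages. None of its 4664, 10000 and 10000 barcodes with 1000 or more UMIs passed, and no barcode held more than 8 muscle UMIs. For scale, 3 passing barcodes would have been shares of 0.0643%, 0.03% and 0.03%.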

How the data were processed

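The authors deposited UMI counts per gene and barcode (whole numbers, not normalized) in 1 matrix pooling the WT and UCP1-STX4KO libraries and 1 pooling 3 ages. The submitters' processing notes name Cell Ranger 6.1.2, Seurat 4.1.0 and mm10, and the methods state that Cell Ranger was forced to 10000 cells, whereas the 2 suffixes hold 11201 and 9106 barcodes and 76195924 and 39857819 UMIs. Members, gene lists and the naming rule (list genes, the 15 most abundant genes and 15 highest ratios, the 10 highest and lowest class ratios) were chosen with earlier results of these data known. The limit of 10 muscle UMIs was read as a sum over the genes. UMIs were summed over nuclei and given as CPM with exact Poisson intervals, ratios with exact conditional binomial intervals and shares with Clopper-Pearson intervals, at 95%. No p-values were computed, since no map ties barcodes to samples. Ratios used genes with 100 or more UMIs in all and 10 or more observed or expected in members, and class ratios genes with 50 or more. Doublets were called with scrublet in scanpy 1.11.5: 321 barcodes (3.53%) of suffix 2, of which 14 were muscle nuclei, were called and kept in the main values. No call was made in suffix 1, where the caller marked 0. Clustering used log1p counts per 10000, 2000 variable genes, 20 principal components and leiden resolution 0.5. Gene positions are from GENCODE M21 and promoter and microRNA sequences from RefSeq. Tables and intervals were made with pandas 2.3.3 and scipy 1.17.1 under Python 3.11.15, and the scripts were tested on simulated data. Aldoa, whose symbol is not unique in the matrix, was left out.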

Additional observations from a re-analysis of the deposited data

Results flagged for a closer look

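Nebulin RNA was found in the aging matrix, where no barcode met the muscle selection. Neb had 1272 UMIs over 24664 barcodes with 1000 or more UMIs, or 24.2 CPM (22.9 to 25.6). This is a signal in data used in no comparison, and free RNA as its background was not measured there. It was spread over 862 barcodes with at most 8 UMIs each, and Ttn had 265 UMIs (5.05 CPM). The ratio of Neb to Ttn was 4.80, against 0.186 in the muscle nuclei of the WT and UCP1-STX4KO matrix. Low muscle RNA was also found in that matrix outside its muscle nuclei and the barcodes kept out. There the 9 selection genes summed to 8.09 CPM in suffix 1 and 142 in suffix 2, with Ttn at 2.01 and 67.8. By suffix Neb was at 42.2, 15.7 and 21.5 CPM and Ttn at 8.53, 4.15 and 3.83 CPM.

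A second set of muscle nuclei lay outside the selection. In suffix 2, 80 barcodes met its muscle part and failed only the limit on other cell types, 76 of them through Abcc9. Their classes were 46 Myh4, 15 Myh1, 0 Myh2, 7 Myh7, 9 mixed and 3 with too few myosin UMIs.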

How the results depend on the processing

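Of 126 values for counts and shares under alternatives, 104 kept within their limits and 22 moved, and of the ratios of named genes 824 kept and 429 moved. None of these changed direction. In the contrast of the Myh1 class, added after seeing the data, Ntrk2 (7.41 to 0.316) and Rbpms (5.58 to 0.624) did when doublet calls and the adipocyte-rich group were left out. Allowing 0 other-type UMIs left 114 muscle nuclei in suffix 2 against 258. The 1112 genes at a ratio of 2 or more became 614 with each barcode thinned to 1000 UMIs, 2704 with no gene minimum and 599 with a minimum of 500 UMIs, and the 3016 at 0.5 or less became 1678 when thinned and 12392 with no minimum. A minimum of 10 myosin UMIs gave 27.8% Myh4 and 25.9% unassigned, and a minimum of 3 gave 3.76% unassigned. Classes cut at 90% gave 6.77% Myh2 and 19.5% mixed, and at 50% gave 0% mixed. Thinned to 1000 UMIs, the classes were 12.8% Myh4, 9.40% Myh1, 8.27% Myh2, 5.26% Myh7, 2.26% mixed and 62.0% unassigned, with fewer UMIs to class by. Reading the selection as 10 UMIs in each of 3 genes gave 236 nuclei with 4.66% unassigned. The Myh4 contrast had 30 genes higher and 26 lower when thinned, against 129 and 119, and synaptic nuclei were 1 against 6. Alternatives that left out Abcc9, doublet calls with the adipocyte-rich group, or the barcodes kept out were added after seeing the data. No paired analysis was possible because each group has 1 library and barcodes carry no genotype. Depth limits low genes: 3 UMIs equal 2.40 CPM over the muscle nuclei of suffix 2 and 28.6 CPM over those of suffix 1.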
